A study of Mus musculus with 6 samples.

Results

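The 5 lysyl oxidase genes and the 3 lysyl hydroxylase genes of the mouse were followed in sorted skeletal stem cells of the Achilles enthesis, the tissue that anchors the tendon in bone, 7 days after a partial injury. Members were taken by gene symbol, and all 8 (Lox, Loxl1, Loxl2, Loxl3, Loxl4, Plod1, Plod2 and Plod3) were found among 26130 rows of the deposited count table. The 6 libraries comprised 3 of injured, 1 of uninjured and 2 of sham control interfaces, all from C57BL/6 mice and all labelled mouse skeletal stem cells. A further label field calls the uninjured library a sham, so it is shown on its own and also joined to the sham libraries. The sources used here give no age, no sort gate and no statement on whether a library is 1 animal or a pool, and the spread between libraries may be partly technical.

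Collagen fibrils gain their strength from covalent bonds between lysine residues. Lysyl hydroxylases, encoded by the Plod genes, act inside the endoplasmic reticulum and hydroxylate lysines of the procollagen chain before it folds. Lysyl oxidases act outside the cell as copper enzymes that turn lysines and hydroxylysines of collagen and elastin into reactive aldehydes, which then condense into crosslinks. Hydroxylation of the telopeptides, the short ends of the chain, steers the bonds towards the stable pyridinoline type of cartilage, bone and stiff scar. In tendon and its insertion, loss of this chemistry weakens the tissue.

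Injured libraries were deeper than the rest, with totals from 46250870 to 51089267 counts, against 37506188 to 40483028 counts in the uninjured and sham libraries. Members had between 530 and 83178 counts each. Libraries started from amplified cDNA of 150 pg of RNA, and reads that are copies of 1 molecule cannot be recognised in the counts. Haemoglobin genes took 0.711%, 0.0904% and 0.000852% of counts in injured 1, 2 and 3, 0.0156% in the uninjured sample, and 4.80% and 0.000188% in sham 1 and 2. Summed over 10 macrophage markers the level was 4537, 1168 and 24.0 CPM in injured 1, 2 and 3, 138 CPM in the uninjured library, and 2768 and 17.1 CPM in sham 1 and 2. Injured 3 and sham 2 were thus the lowest libraries in haemoglobin and macrophage transcripts. Summed over 10 Schwann cell markers the level was 626, 372 and 389 CPM in injured 1, 2 and 3, 1133 CPM in the uninjured library, and 5546 and 1096 CPM in sham 1 and 2, so every injured library was below every other. The part of depth, of the ribosomal RNA share and of these marker levels in the members' differences was not tested. Itgav and Cd200, surface genes of skeletal stem cells, summed to between 64.7 and 230.2 CPM per library. The 5 genes whose proteins such a sort excludes summed to 121, 54.5 and 18.2 CPM in injured 1, 2 and 3, 97.6 CPM in the uninjured library, and 297 and 0.663 CPM in sham 1 and 2. CPM here are counts scaled to a common library total after adjustment by the trimmed mean of M-values (TMM). In sorted bulk RNA, more cells of a type and more RNA per cell cannot be told apart.

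Against sham control all 8 members had a log2 fold change above 0, but none passed the test. Plod3 had the largest difference, 2.96-fold, followed by Loxl2 (2.16-fold), Loxl4 (2.15-fold), Loxl3 (2.04-fold) and Lox (1.90-fold), while Plod2 (1.53-fold), Loxl1 and Plod1 (1.19-fold) lay nearer to equality. For Loxl2, Loxl3 and Plod3 all 3 injured libraries stood above both sham libraries and above the uninjured one. By edgeR's quasi-likelihood test 0 of 8 members passed an adjusted p of 0.05 (smallest 0.865), as did 0% of all 16752 genes tested. Loxl2 and Plod3 had an unadjusted edgeR p under 0.05 with a higher level in injured cells, as did 2.44% of all genes (4.64% in either direction, 2.2% lower). DESeq2 called 0 members, where it called 2.2% of genes (1.43% higher), and limma-voom called 0 members. Non-overlap in the upward direction held for 3 of 8 members and for 11.9% of genes, while 9.12% of genes had every injured library below both sham libraries. A log2 fold change above 0 was found in 53.7% of genes, and the median log2 fold change was 0.98 over the members against 0.09 over all genes.

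**Figure D1:**
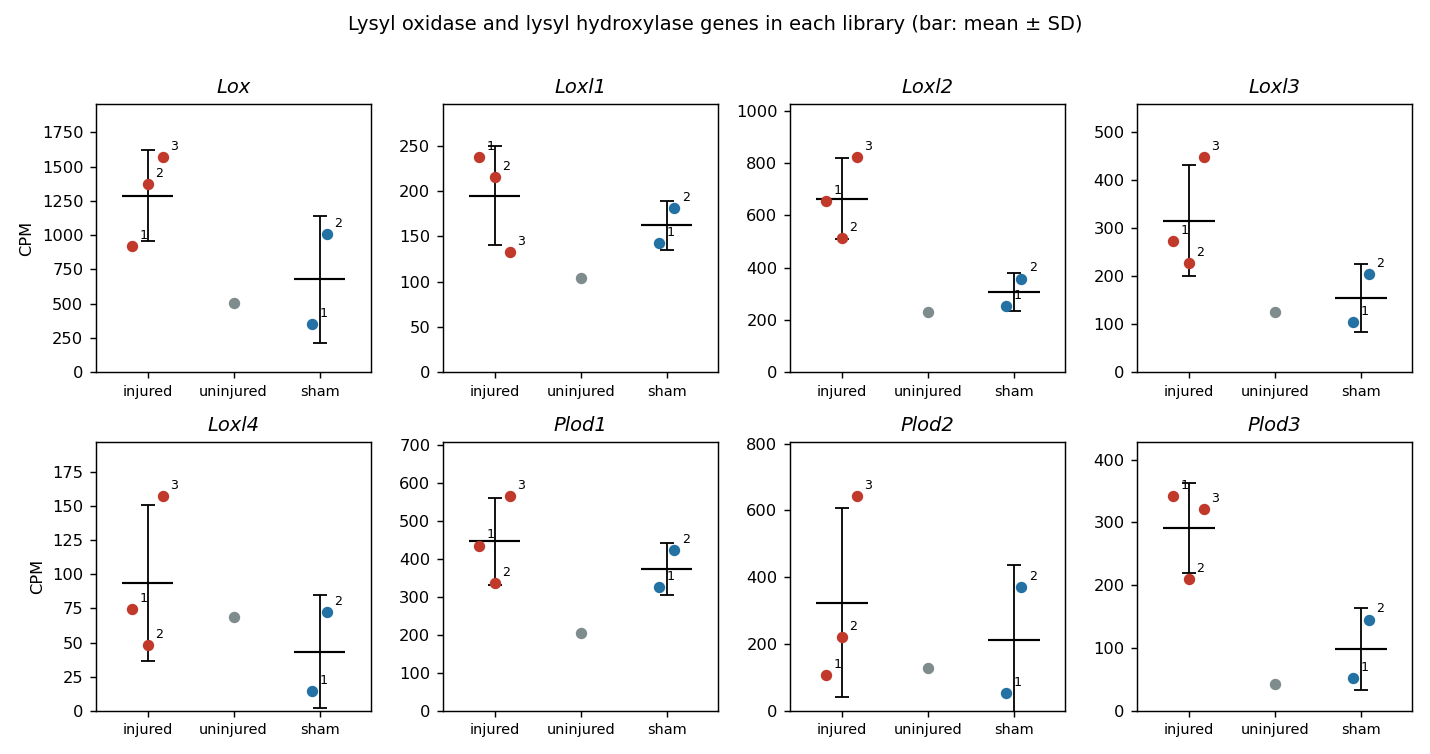
Level of each gene in CPM (vertical axis, linear, a scale per gene) in injured, uninjured and sham control libraries; points are libraries with their replicate numbers, bars the mean and SD of groups with more than 1 library (the lower end for Plod2 in sham is drawn only to 0). The injured points of Loxl2, Loxl3 and Plod3 lie above every other point, and those of Lox, Loxl1, Loxl4, Plod1 and Plod2 overlap with sham.

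Lox encodes the founding lysyl oxidase, secreted as a proenzyme and released by procollagen C-proteinase. It stood at 922, 1374 and 1567 CPM in injured 1, 2 and 3, at 508 CPM in the uninjured library, and at 350.0 and 1007 CPM in sham 1 and 2. The lowest injured library lay just below the higher sham library, so the groups overlapped at this single point. The log2 fold change was 0.92 ± 0.59 (SE; edgeR unadjusted p = 0.161, adjusted p = 0.865). It rested heavily on which sham library was used, being 0.35 without sham 1 and 1.88 without sham 2.

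Loxl1, whose product acts mainly on elastin and elastic fibres, showed little difference. Its level was 237, 215 and 133 CPM in injured 1, 2 and 3, 104 CPM in the uninjured library, and 143 and 181 CPM in sham 1 and 2. Injured 3 was the lowest of the injured and sham libraries for this gene, whereas it was the highest library for Lox, Loxl2, Loxl3, Loxl4, Plod1 and Plod2. The log2 fold change was 0.27 ± 0.40 (SE; edgeR unadjusted p = 0.531, adjusted p = 0.966), and it turned to -0.059 when sham 1 and injured 1 were both left out.

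Loxl2, Loxl3 and Loxl4 form the branch of the family that carries scavenger receptor domains ahead of the catalytic part. Loxl2, which crosslinks fibrillar and basement membrane collagens, stood at 654, 513 and 822 CPM in injured 1, 2 and 3, at 232 CPM in the uninjured library, and at 255 and 359 CPM in sham 1 and 2. Every injured library was above every other library, and the log2 fold change of 1.11 ± 0.43 (SE) had an edgeR unadjusted p of 0.0362 and an adjusted p of 0.865. Leaving out single libraries moved it between 0.89 (without sham 1) and 1.38 (without sham 2). Loxl3, needed in the mouse for palate and spine development, stood at 274, 227 and 447 CPM in injured libraries, at 127 CPM in the uninjured library, and at 105 and 205 CPM in sham libraries. The margin was narrow, the lowest injured library exceeding the higher sham library by little, and the log2 fold change was 1.03 ± 0.50 (SE; edgeR unadjusted p = 0.0787, adjusted p = 0.865). Loxl4, the least abundant member, stood at 74.6, 48.1 and 158 CPM in injured libraries, at 68.8 CPM in the uninjured library, and at 14.3 and 72.5 CPM in sham libraries. Here the groups overlapped, and sham 1 alone was far below the rest (log2 fold change 1.11 ± 0.81, SE; edgeR unadjusted p = 0.213, adjusted p = 0.865). Without sham 1 the log2 fold changes were 0.62 for Loxl3 and 0.37 for Loxl4, and without sham 2 they were 1.59 for Loxl3 and 2.71 for Loxl4.

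Plod3 had the largest fold change of the 8 against sham control with all libraries in the fit. It encodes the multifunctional lysyl hydroxylase that also adds galactose and glucose to hydroxylysine, a step needed for basement membrane collagen. Its level was 342, 209.9 and 321 CPM in injured 1, 2 and 3, 43.1 CPM in the uninjured library, and 51.7 and 145 CPM in sham 1 and 2. No injured library overlapped with any other library, and the means were 291 ± 71.1 (SD, n = 3) in injured and 98.4 ± 66.0 CPM (SD, n = 2) in sham control. The log2 fold change was 1.56 ± 0.55 (SE), with an edgeR unadjusted p of 0.0256 and an adjusted p of 0.865. It was 1.00 without sham 1, 2.49 without sham 2, and 0.87 with sham 1 and injured 1 both left out. Its first place was lost without sham 2, where Loxl4 (2.71) and Plod2 (2.61) were higher, and with sham 1 and injured 1 left out, where Loxl2 (0.90) was higher.

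Plod1, the hydroxylase of lysines within the collagen triple helix, varied little. It stood at 435, 337 and 566 CPM in injured 1, 2 and 3, at 206 CPM in the uninjured library, and at 324 and 422 CPM in sham 1 and 2. Injured and sham libraries were interleaved and the uninjured library lay below all of them (log2 fold change 0.26 ± 0.41, SE; edgeR unadjusted p = 0.552, adjusted p = 0.970).

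Plod2, the telopeptide lysyl hydroxylase, varied more between libraries of 1 group than between groups. It stood at 106, 222 and 644 CPM in injured 1, 2 and 3, at 129 CPM in the uninjured library, and at 53.0 and 370.0 CPM in sham 1 and 2. The highest levels were in injured 3 and sham 2 and the lowest in sham 1 and injured 1. Summed chondrocyte markers, 11 genes, were also highest in injured 3 (55876 CPM) and sham 2 (31253 CPM) and stood between 6293 and 17358 CPM in the remaining libraries. Much of this sum was Col2a1, at 40956 CPM in injured 3, 17122 CPM in sham 2 and 12395 CPM in injured 1. The chondrocyte sum is thus weighted towards this gene and does not stand for the whole list. Summed tendon fibroblast markers, 10 genes, were likewise highest in injured 3 (103118 CPM) and sham 2 (111478 CPM), against 34438 to 62281 CPM in the remaining libraries. Most of this sum was type I collagen, as the list includes Col1a1 and Col1a2. They stood at 61146 and 35903 CPM in injured 3 and at 67512 and 32392 CPM in sham 2. The sum is thus no measure of the remaining tendon markers. The part of either marker sum in the Plod2 level was not tested. The log2 fold change of 0.61 ± 0.99 (SE; edgeR unadjusted p = 0.553, adjusted p = 0.970) became -0.19 without sham 1 and -0.37 without injured 3, and it was 2.61 without sham 2.

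The upstream sequences of Plod3 and Plod1 are set side by side because Plod3 had the largest and Plod1 the smallest fold change among the 8 against sham control with all libraries in the fit. They are from RefSeq on build GRCm38.p6, 250 bases ending at the base before the annotated start, 5′ to 3′ on the gene's strand. Plod3 is read from chr5:136986769-136987018 on the plus strand and Plod1 from chr4:147936777-147937026 on the minus strand. Capitals mark ACGTG or GCGTG, the core letters of the hypoxia response element, on either strand (read as CACGT or CACGC on the other).
Plod3: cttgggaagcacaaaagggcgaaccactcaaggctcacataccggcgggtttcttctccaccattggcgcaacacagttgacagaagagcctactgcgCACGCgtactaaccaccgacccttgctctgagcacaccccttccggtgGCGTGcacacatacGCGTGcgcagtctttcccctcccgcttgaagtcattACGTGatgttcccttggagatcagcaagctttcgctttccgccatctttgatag
Plod1: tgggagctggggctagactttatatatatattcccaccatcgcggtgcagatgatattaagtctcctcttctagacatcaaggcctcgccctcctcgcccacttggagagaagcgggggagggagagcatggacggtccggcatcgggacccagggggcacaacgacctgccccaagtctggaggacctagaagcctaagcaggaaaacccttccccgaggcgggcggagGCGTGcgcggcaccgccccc
The Plod3 window held 4 matches and the Plod1 window 1, as did that of Loxl4, the only further member with a promoter entry among those looked up. Lox was not looked up. Of 32851 promoters of this length, 38.6% held at least 1 match and 2.58% at least 4. These shares were not matched for G and C content. It was 55.6% for Plod3, 61.6% for Plod1 and 76.0% for Loxl4, with a median of 52.4% over all promoters. The fold change of Plod1 was close to that of Loxl1 (log2 0.26 and 0.27). A link between the number of matches and the fold change was not tested. A match is a run of letters and not a bound site.

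Joining the uninjured library to the sham libraries gave 3 libraries on each side. This comparison shares its injured libraries and both sham libraries with the first, so its values are set beside those and are no second test of them. The log2 fold changes were 1.05 for Lox, 0.45 for Loxl1, 1.23 for Loxl2, 1.11 for Loxl3, 0.84 for Loxl4, 0.48 for Plod1, 0.81 for Plod2 and 1.86 for Plod3. All 8 were again above 0, where 50.1% of 14110 genes tested were. Mean levels were 663 ± 155 CPM in injured and 282 ± 67.6 CPM in non-injured libraries for Loxl2, and 291 ± 71.1 CPM in injured and 80.0 ± 56.5 CPM in non-injured libraries for Plod3 (SD, n = 3 each). By edgeR 0 members passed (smallest adjusted p = 0.452), as did 0% of all genes, and Loxl2, Loxl3 and Plod3 had an unadjusted p under 0.05, as did 3.71% of genes in the upward direction (3.72% downward, 7.43% in all). DESeq2 called Loxl2 (adjusted p = 0.0291) and Plod3 (adjusted p = 0.0383), where it called 1.01% of genes upward, and limma-voom called 0 members (smallest adjusted p = 0.339). The same 3 genes had every injured library above every non-injured one, which held for 9.23% of genes (7.07% the other way).

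**Figure D2:**
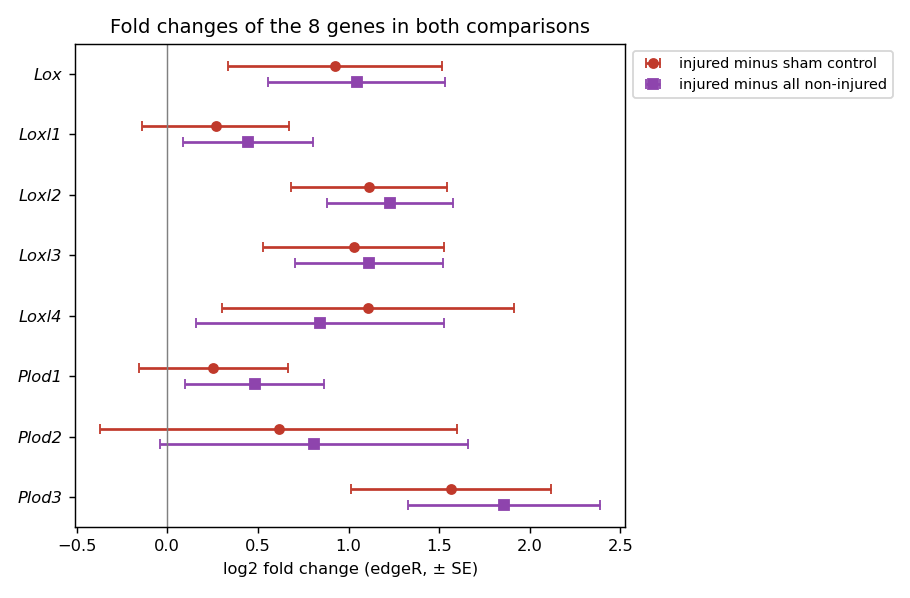
Log2 fold change of each gene (horizontal axis, edgeR, bars ± SE) for injured minus sham control (circles) and injured minus all non-injured libraries (squares). All points lie right of 0, with Plod3 farthest at 1.56 and 1.86 and with the widest bars on Plod2 and Loxl4.

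Crosslinking enzymes act on fibrillar collagen, so members were also counted against it. Per 1000 counts of Col1a1, Col1a2 and Col3a1 together, a measure that needs no scaling between libraries, injured libraries stood above both sham libraries for 5 of 8 members (Lox, Loxl2, Loxl3, Loxl4 and Plod3), as they did for 6.55% of all genes. Against all non-injured libraries this held for Loxl2, Loxl3 and Plod3, and for 2.74% of genes. The summed collagen level itself overlapped, at 92737, 71702 and 130150 CPM in injured libraries, 48532 CPM in the uninjured library, and 43809 and 131276 CPM in sham libraries.

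Lox had 9.94, 19.2 and 12.0 counts per 1000 collagen counts in injured 1, 2 and 3, 10.5 in the uninjured sample, and 7.99 and 7.67 in sham 1 and 2. The sham libraries, which differed widely in Lox CPM, were nearly equal on this measure, and the uninjured library fell within the injured range. Plod3 had 3.69, 2.93 and 2.47 in injured libraries, 0.888 in the uninjured sample, and 1.18 and 1.105 in sham libraries, and its groups were well apart. Loxl2 had 7.06, 7.15 and 6.31 in injured libraries, 4.77 in the uninjured sample, and 5.81 and 2.73 in sham libraries. Its injured libraries were close together and sham 2 stood lowest. Plod1, at 4.69, 4.69 and 4.35 in injured libraries, 4.24 in the uninjured sample, and 7.41 and 3.22 in sham libraries, lay between the sham values in each injured library.

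**Figure D3:**
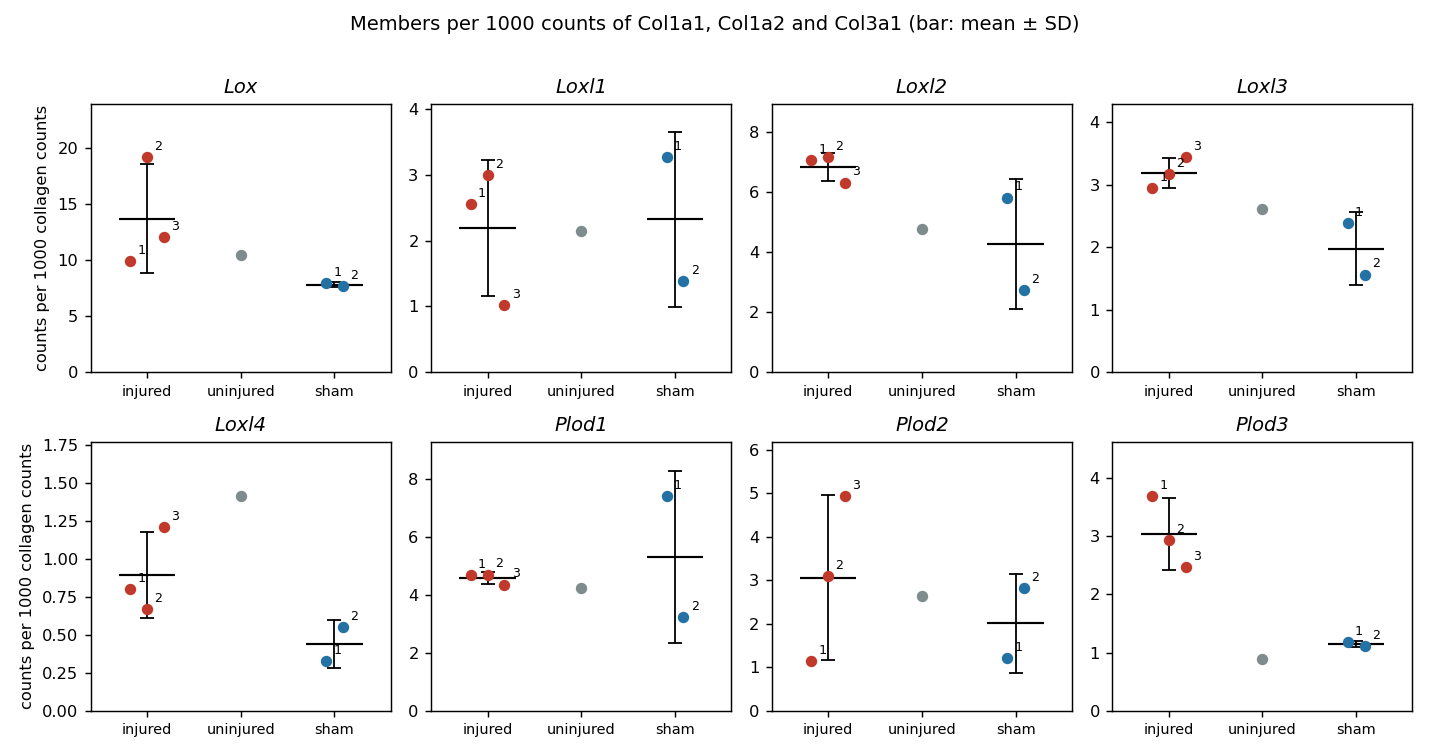
Counts of each gene per 1000 counts of Col1a1, Col1a2 and Col3a1 together (vertical axis, linear, a scale per gene) in injured, uninjured and sham control libraries; points are libraries, bars the mean and SD. Plod3 is between 2.47 and 3.69 in injured libraries and at most 1.18 elsewhere, and the Lox values of the sham libraries lie close together at 7.99 and 7.67.

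The make-up of each family was compared within libraries. Lysyl oxidases together summed to 2162, 2377 and 3126 CPM in injured 1, 2 and 3, to 1039 CPM in the uninjured library, and to 867 and 1824 CPM in sham 1 and 2, with no overlap. Of single genes, 11.9% had every injured library above both sham libraries and 9.23% above all non-injured libraries. Of the lysyl oxidase counts Lox held 42.7%, 57.8% and 50.1% in injured libraries, 48.9% in the uninjured sample, and 40.4% and 55.2% in sham libraries. Lox itself overlapped in CPM between injured and sham libraries. The shares of all 5 lysyl oxidases overlapped between injured and sham libraries. Lysyl hydroxylases summed to 883, 768 and 1530.4 CPM in injured libraries, to 378 CPM in the uninjured library, and to 429 and 937 CPM in sham libraries, which overlapped.

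Within the hydroxylases it was the Plod3 share that separated the groups. Plod3 held 38.8%, 27.3% and 21.0% of the family's counts in injured 1, 2 and 3, 11.4% in the uninjured sample, and 12.1% and 15.5% in sham 1 and 2. Every injured value was above every other. Plod1 held 49.2%, 43.8% and 37.0% in injured libraries, 54.5% in the uninjured sample, and 75.6% and 45.1% in sham libraries. Plod2 held from 12.0% to 42.1% in injured libraries, 34.1% in the uninjured sample, and 12.4% and 39.5% in sham libraries, so its share spanned the same range with and without injury.

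**Figure D4:**
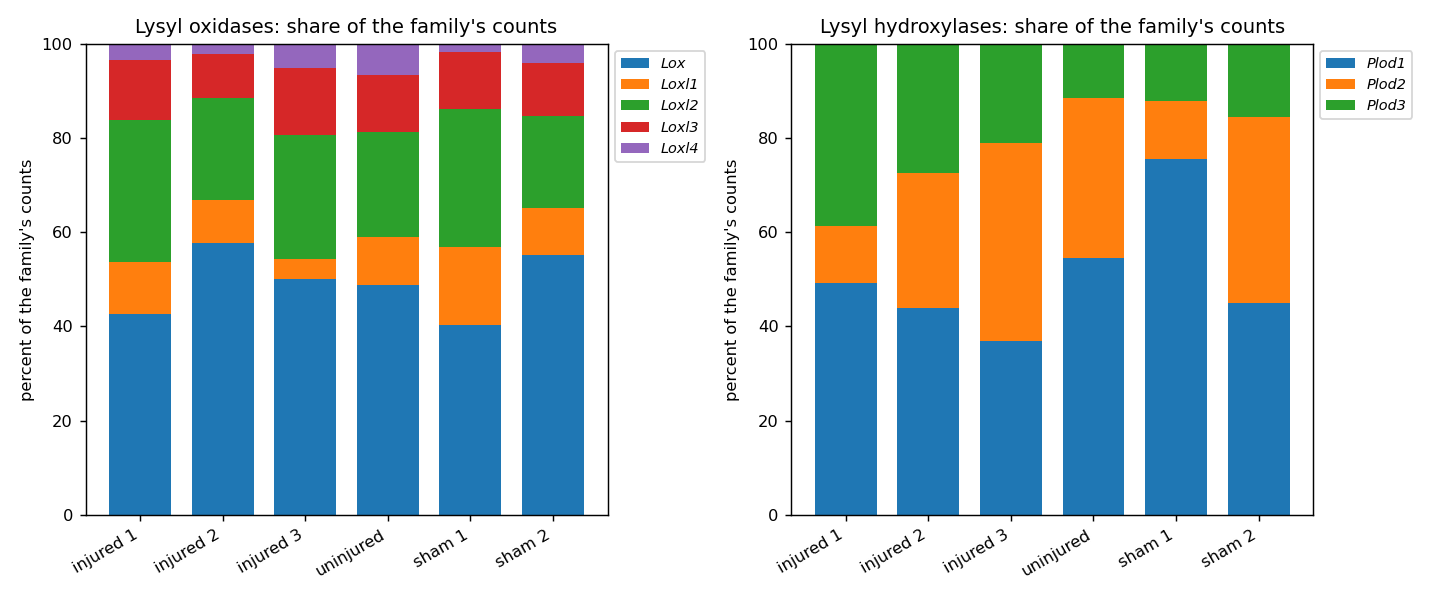
Share of each gene in its family's counts (vertical axis, percent) in each library, for the lysyl oxidases on the left and the lysyl hydroxylases on the right. The Plod3 part is between 21.0% and 38.8% in injured libraries and at most 15.5% in the others, while Lox holds between 40.4% and 57.8% everywhere.

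Levels of different genes were compared per kilobase of the longest protein-coding transcript in GENCODE M21. Lox led in 5 of 6 libraries, Plod1 in the remaining one, sham 1. In injured cells Lox stood at 272 ± 69.8 CPM per kilobase, then Plod1 at 137 ± 35.5, Loxl2 at 125 ± 29.1, Plod3 at 88.7 ± 21.7, Plod2 at 88.4 ± 77.2, Loxl3 at 77.1 ± 28.3, Loxl1 at 59.1 ± 16.7 and Loxl4 at 25.0 ± 15.3 (SD, n = 3). Lox and Plod1, Loxl2 and Plod3, and Loxl1 and Loxl4 were neighbours whose means lay farther apart than the SD of either. The means of the other neighbours in this order differed by less than the larger of their SDs. In sham control Lox stood at 143 ± 98.0, Plod1 at 115 ± 21.3, Plod2 at 57.7 ± 61.2, Loxl2 at 57.7 ± 13.8, Loxl1 at 49.1 ± 8.20, Loxl3 at 37.8 ± 17.3 and then Plod3 and Loxl4 (CPM per kilobase, SD, n = 2). The place of Plod3 varied between libraries of a group, and Loxl4 came last in 4 of 6 libraries.

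For each member the most similar genes were those whose log2(CPM + 1), centred over the 6 libraries, differed least by root mean square (RMS) among 9020 genes of at least 10 CPM on average. Lox was closest to Gja1 (0.08) and Ppp2r1b (0.11), Loxl2 to Kdelr2 (0.07) and Gm21451 (0.10), and Loxl1 to Gm10705 and Rbis (0.09 each). Loxl3 was closest to Stt3a and P4ha1 (0.14 each) and Loxl4 to Pth1r and Dcaf10 (0.31 each). Plod1 was closest to Gosr2 (0.14) and Crtap (0.15), Plod2 to Gfpt1 (0.29) and Hif1a (0.32), and Plod3 to Tnc (0.14) and Adam12 (0.22). On the same scale the member's own RMS deviation from its mean was 0.76 for Lox, 0.41 for Loxl1, 0.67 for Loxl2, 0.69 for Loxl3, 1.01 for Loxl4, 0.45 for Plod1, 1.18 for Plod2 and 1.17 for Plod3.

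Other enzymes and chaperones of procollagen in the endoplasmic reticulum leaned the same way as the lysyl hydroxylases. Of 14 genes tested against sham control 12 had a log2 fold change above 0, and the median log2 fold change was 0.84 against 0.09 over all genes. For 9 of 14 every injured library stood above both sham libraries, which held for 11.9% of all genes. By edgeR 0 passed and 3 had an unadjusted p under 0.05, all higher, as did 2.44% of all genes, and DESeq2 and limma-voom called 0. P3h1, a prolyl 3-hydroxylase, averaged 188 ± 32.0 CPM in injured and 80.3 ± 29.9 CPM in sham cells (SD, n = 3 and 2), a log2 fold change of 1.23 ± 0.42 (SE; edgeR unadjusted p = 0.0218, adjusted p = 0.865). Serpinh1, the collagen chaperone HSP47, averaged 1701 ± 367 CPM in injured and 754 ± 47.3 CPM in sham cells, and P3h3 averaged 194 ± 29.7 CPM in injured and 86.0 ± 45.6 CPM in sham cells (SD, n = 3 and 2). Named after its values were seen, Fkbp10 encodes a prolyl isomerase that assists the telopeptide hydroxylase. It stood at 1131, 662 and 1034 CPM in injured libraries, at 192 CPM in the uninjured library, and at 315 and 593 CPM in sham libraries, with every injured library above both sham libraries (log2 fold change 1.05 ± 0.49, SE; edgeR unadjusted p = 0.0714).

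**Figure D5:**
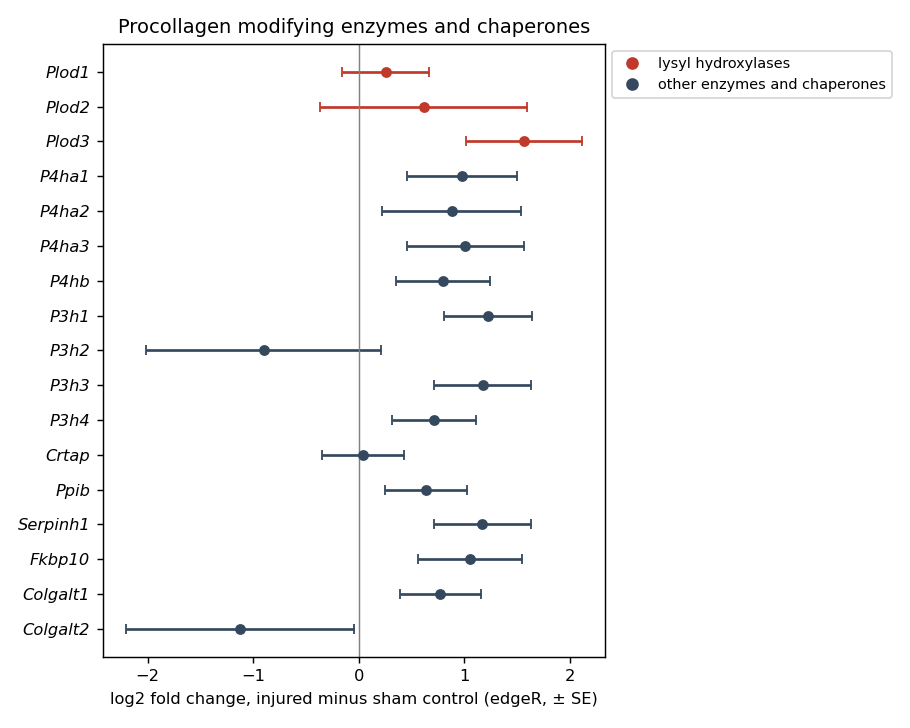
Log2 fold change of injured minus sham control (horizontal axis, edgeR, bars ± SE) for the lysyl hydroxylases and 14 other procollagen modifying enzymes and chaperones. P3h2 and Colgalt2 alone lie left of 0, and Plod3 has the largest value at 1.56.

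Substrates and the proteins that place the enzymes gave a less even picture. Of 11 fibrillar collagen chains 10 had a log2 fold change above 0 against sham control (53.7% of all genes), with a median log2 fold change of 0.67 against 0.09 over all genes. Of the 11, Col5a3, a minor chain of type V collagen, alone had every injured library above both sham libraries, which held for 11.9% of all genes. It averaged 657 ± 155 CPM in injured and 307 ± 142 CPM in sham cells (SD, n = 3 and 2). Col11a1 and Col11a2, chains of cartilage type XI collagen, had log2 fold changes of 1.91 ± 1.15 and 1.72 ± 1.12 (SE). Of 13 elastic fibre genes 7 lay above 0 and 6 below. Efemp2, encoding fibulin-4, which binds Lox and tethers it to tropoelastin, averaged 357 ± 77.3 CPM in injured and 162 ± 68.5 CPM in sham cells. Fibulin-1 (Fbln1) averaged 59.6 ± 29.3 CPM in injured and 152 ± 60.2 CPM in sham cells, and the latent TGF-beta binding protein Ltbp4 averaged 183 ± 95.0 CPM in injured and 524 ± 306 CPM in sham cells (SD, n = 3 and 2 for each). Among 5 matrix proteins that bind lysyl oxidase 3 lay above 0. Thbs1 and Postn (periostin) overlapped between groups, with log2 fold changes of 0.75 ± 0.49 and 1.06 ± 0.83 (SE). None of the genes of these lists passed by edgeR, DESeq2 or limma-voom against sham control. Unadjusted edgeR p-values were under 0.05 for 0 collagen chains and for 4 elastic fibre genes (2 higher, 2 lower). The same held for 1 lysyl oxidase binder, Efemp2, which is on both lists. Over all genes, 2.44% had such a p-value with a higher level in injured cells and 2.2% with a lower one.

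Enzymes that mature the proenzyme and the supply of its copper cofactor were read in the same way. Of 7 procollagen proteases and enhancers tested, 4 lay above 0 and 3 below. Every injured library stood above both sham libraries for 2 of the 7 (11.9% of all genes) and below them for 1 (9.12% of all genes). Bmp1, the procollagen C-proteinase that also cleaves the Lox propeptide, averaged 476 ± 87.9 CPM in injured and 309 ± 25.6 CPM in sham cells (SD, n = 3 and 2; log2 fold change 0.62 ± 0.38, SE), with no overlap. Its enhancer homologue Pcolce2 averaged 155 ± 63.4 CPM in injured and 386 ± 219 CPM in sham cells and the N-proteinase gene Adamts2 250.3 ± 37.7 CPM in injured and 427 ± 203 CPM in sham cells. Of 8 copper uptake and delivery genes, 4 lay on each side of 0. The importer Slc31a1 averaged 88.4 ± 29.5 CPM in injured and 50.8 ± 47.7 CPM in sham cells, the exporter Atp7a, which loads copper into secreted enzymes, 24.7 ± 15.5 CPM in injured and 13.8 ± 4.07 CPM in sham cells, and the mitochondrial chaperone Cox17 29.7 ± 10.1 CPM in injured and 18.8 ± 0.160 CPM in sham cells (SD, n = 3 and 2 in each pair). Slc31a1 and Atp7a overlapped between injured and sham libraries. Atp7a was highest in the uninjured library (61.2 CPM), and its log2 fold change against all non-injured libraries was -0.26. None of the genes of these lists passed by any of the 3 tools. Pcolce2 alone had an unadjusted edgeR p under 0.05 (0.0406, lower in injured cells), as did 2.2% of all genes in that direction.

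Genes of the hypoxia and TGF-beta pathways, known regulators of this enzyme group, were read last. Of 17 hypoxia inducible genes, 13 lay above 0 and 4 below, where 53.7% of all genes lay above 0, and the median log2 fold change was 0.60 against 0.09 over all genes. By edgeR 0 passed, and 1 in each direction had an unadjusted p under 0.05, as did 2.44% of all genes upward and 2.2% downward. Pgk1, a glycolytic enzyme, averaged 541 ± 141 CPM in injured and 264 ± 26.9 CPM in sham cells, whereas Ndrg1, a stress response gene, averaged 72.4 ± 12.5 CPM in injured and 282 ± 166 CPM in sham cells and Epas1, encoding HIF-2 alpha, 15.7 ± 7.56 CPM in injured and 40.7 ± 23.7 CPM in sham cells (SD, n = 3 and 2 in each pair). Epas1 overlapped between injured and sham libraries, with 24.1 CPM in injured 1 and 24.0 CPM in sham 2. Against sham control DESeq2 called Ndrg1, lower in injured cells, where it called 2.2% of all genes (1.43% higher). By limma-voom 0 were called. Of 12 TGF-beta ligands, receptors and targets, 9 lay below 0 and 3 above, where 53.7% of all genes lay above 0. The median log2 fold change was -0.40 against 0.09 over all genes, and 0 passed by any of the tools. Every injured library lay below both sham libraries for 2 of the 12 (9.12% of all genes) and above them for 1 (11.9% of all genes). Tgfb1 averaged 52.3 ± 15.0 CPM in injured and 109.9 ± 15.0 CPM in sham cells and the receptor Tgfbr2 127 ± 6.71 CPM in injured and 194 ± 20.3 CPM in sham cells, with every injured library below both sham libraries, while the matrix target Tgfbi averaged 1649.5 ± 382 CPM in injured and 883 ± 321 CPM in sham cells with every injured library above them (SD, n = 3 and 2 in each pair).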

How the data were processed

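RNA of sorted cells was sequenced in 6 libraries. The deposited values are whole-number counts per gene symbol. The tools named in the submitters' processing notes are Salmon (0.12.0) along with DESeq2 (1.22.2) and DESeq. Those notes also list 2 builds, GRCm38.p6 and mm9, and do not tie either to a step. The sources used here do not say how estimates became gene counts, nor if strand counted. From the counts, genes were kept by filterByExpr (minimum count 10), scaled by TMM and tested with edgeR 4.0.16 (R 4.3.3; quasi-likelihood F test, Benjamini-Hochberg over all genes tested, threshold 0.05), with DESeq2 1.42.0 and limma 3.58.1 as alternatives. The first fit held 3 groups (3 residual degrees of freedom), the second 2 (4 degrees). Standard errors follow from the F statistic. Transcript lengths came from GENCODE M21, since no protein table was used. All members are named, with up to 3 genes of smallest p of each of 8 pathway lists and 2 most similar genes per member. Members and lists were chosen with earlier results of these data known. Of 227 list entries, 1 was matched by an older symbol and 1 had no match. Alternatives were scaling, filter, tool, left-out genes or libraries, and a replicate block.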

Additional observations from a re-analysis of the deposited data

How the results depend on the processing

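No member other than Plod2 and Loxl1 changed direction under the alternatives run, some of which are the same fit. Log2 fold changes moved widely all the same, from 0.37 to 2.71 for Loxl4 against sham control. Plod2 changed direction against sham control without sham 1 (-0.19) and without injured 3 (-0.37), and on the libraries numbered 1 and 2 with no block (-0.36 in both comparisons, added after seeing the data). Leaving out single libraries it ran from -0.37 to 2.61 against sham control and from -0.18 (without injured 3) to 1.83 against all non-injured libraries. Loxl1 was -0.059 against sham control with sham 1 and injured 1 left out. Loxl2 and Plod3 passed only by DESeq2 against all non-injured libraries. The count of genes past the threshold was 0 in both edgeR fits and 0 without any 1 library (0 to 0). It was 3 against sham control and 5 against all non-injured libraries with no low-count filter, 369 and 345 by DESeq2, and 1 and 7 by limma-voom. Scaling by library size alone put the all-gene median against sham control at 0.23 in place of 0.09 (log2); Plod3 was then 1.70, and no scaling reversed a member. A replicate block on the titles' numbers 1 and 2, with 2 pairs and a correlation of 0.24 between their differences over genes, gave 0 calls, 1.61 for Plod3, 0.92 for Loxl2 and 0.11 for Plod2; the numbers were not shown to pair the samples.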
